A study of Mus musculus with 6 samples.

Results

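The genes that mark mast cells and basophils were followed in mouse dendritic cell cultures with and without DB2313. The group holds 9 genes, Mcpt8, Cpa3, Gata2, Fcer1a, Ms4a2, Hdc, Prss34, Cd200r3 and Il1rl1, taken by name from the 54532 genes counted. All 9 were found and all 9 were among the 14174 genes that passed the filter on low counts. Bulk RNA-seq was done on 3 control libraries, labelled Control, and 3 libraries labelled DB2313. The samples are mouse dendritic cells kept in medium with fetal bovine serum. The cell type is that of the labels, but the study's own text describes DB2313-treated macrophages, and its dose and times are given for other cultures, so they were not used here. No strain, age or genetic change was given for these libraries, and whether the controls received a vehicle was not stated. DB2313 is a small molecule that the study used to inhibit PU.1, the transcription factor encoded by Spi1. The columns of the treated libraries carry the name of Spi1, and each direction of change rests on reading them as the DB2313 libraries.

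Basophils and mast cells are granulated cells that carry the high-affinity receptor for IgE, Fc epsilon RI. When antigen crosslinks the bound IgE, they release histamine and proteases from their granules and make lipid mediators and cytokines. Basophils develop in the bone marrow, whereas mast cells mature in tissues, and the transcription factor GATA2 is needed for both. Mcpt8 and Prss34 encode serine proteases typical of mouse basophils (mMCP-8 and mMCP-11), and Cpa3 encodes a carboxypeptidase of the granules of both cell types. Fcer1a and Ms4a2 encode the alpha chain, which binds IgE, and the beta chain of the receptor. Hdc encodes histidine decarboxylase, which makes histamine. Il1rl1 encodes ST2, the receptor of IL-33, and Cd200r3 encodes an activating receptor found on basophils and mast cells.

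Total counts ranged from 16146743 to 19764677 per library. Replicates of 1 group differed by more than counting noise, most of all DB2313 replicates 1 and 3. Cd74, H2-Eb1 and Ccr7 led the dendritic cell markers, which summed to between 11702 and 11953 CPM (counts scaled by library size, with TMM factors) in control and between 9802 and 11520 CPM with DB2313. All 11 macrophage markers, led by Csf1r, Adgre1 and Cd68, were also above 10 CPM, so macrophage genes were present beside those of the labelled cell type. With DB2313 1 dendritic cell marker of 11 tested rose and 3 fell, and 1 macrophage marker rose and 7 fell (edgeR, adjusted p under 0.05). Among all genes tested 4.66% rose and 5.94% fell at this threshold. The level of short genes moved between libraries. The 1865 tested genes under 1500 bp lay at a median of 0.16, 0.09 and -0.01 (log2, against the control mean) in DB2313 replicates 1, 2 and 3.

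To show what the genes have in common before their values, the reference sequence before each RefSeq start was read. The windows of 250 bases are from RefSeq on GRCm38.p6 and were found for 9 of 9 genes, as 11 windows. Each was searched on both strands for 4 words, AGATAA, its variant AGATAG, then TGATAA with its variant TGATAG, which GATA factors such as GATA2 can bind, and for GAGGAA, the core of many PU.1 sites. A GATA word was in 8 of the 11 windows, belonging to 7 of the 9 genes, and in 26.5% of all 32851 RefSeq windows of that length. Mcpt8 and Gata2 had none. Of the Mcpt8 window 76 bases, and of the second Gata2 window all 250, lie in exons of the gene itself in GENCODE M21. GAGGAA was in 3 of the 11 windows, those of Mcpt8 (in the exon bases), Fcer1a and Cd200r3, and in 23.3% of all windows.

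AGATAA on either strand within 50 bases of the start was found in 4 genes, Prss34, Cpa3, Ms4a2 and Cd200r3, and in 1.65% of all windows. This distance was chosen after the matches were seen. The 6 windows shown here are those of these 4 genes and of the genes that rose, Fcer1a and Hdc, which were chosen by that result. Words nearer to the start than those of Fcer1a and Hdc were also in windows not shown. The first window of Il1rl1 held 5 GATA words, the nearest at 54 bases, and that of Mcpt8 held GAGGAA at 65 bases. Capitals mark GATA words and GAGGAA, and a word on the opposite strand reads as its reverse complement, for example TTATCT.
Prss34, chr17:25298144-25298393, plus strand: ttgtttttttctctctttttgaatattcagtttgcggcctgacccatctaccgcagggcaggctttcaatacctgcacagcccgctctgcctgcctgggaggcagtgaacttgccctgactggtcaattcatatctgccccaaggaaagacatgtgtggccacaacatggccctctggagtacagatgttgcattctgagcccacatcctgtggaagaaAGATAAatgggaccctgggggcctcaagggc
Cpa3, chr3:20242182-20242431, minus strand: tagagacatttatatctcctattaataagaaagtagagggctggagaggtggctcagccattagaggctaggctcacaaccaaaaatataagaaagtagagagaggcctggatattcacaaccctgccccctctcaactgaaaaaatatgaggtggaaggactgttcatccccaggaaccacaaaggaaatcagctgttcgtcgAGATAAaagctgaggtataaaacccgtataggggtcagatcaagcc
Cd200r3, chr16:44943428-44943677, plus strand: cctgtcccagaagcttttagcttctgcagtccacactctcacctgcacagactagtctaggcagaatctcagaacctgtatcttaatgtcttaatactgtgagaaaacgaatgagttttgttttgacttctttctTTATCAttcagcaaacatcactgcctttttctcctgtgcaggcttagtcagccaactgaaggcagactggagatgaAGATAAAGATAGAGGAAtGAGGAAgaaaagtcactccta
Ms4a2, chr19:11623720-11623969, minus strand: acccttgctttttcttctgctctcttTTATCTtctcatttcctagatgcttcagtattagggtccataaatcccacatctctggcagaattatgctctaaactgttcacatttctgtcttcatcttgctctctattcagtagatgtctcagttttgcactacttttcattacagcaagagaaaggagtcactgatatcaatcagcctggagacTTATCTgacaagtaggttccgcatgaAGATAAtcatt
Fcer1a, chr1:173227230-173227479, minus strand: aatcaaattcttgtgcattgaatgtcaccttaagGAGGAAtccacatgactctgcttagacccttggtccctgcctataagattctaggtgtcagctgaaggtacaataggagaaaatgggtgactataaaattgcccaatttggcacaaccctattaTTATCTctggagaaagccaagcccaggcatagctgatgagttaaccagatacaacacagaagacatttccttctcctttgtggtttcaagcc
Hdc, chr2:126618679-126618928, minus strand: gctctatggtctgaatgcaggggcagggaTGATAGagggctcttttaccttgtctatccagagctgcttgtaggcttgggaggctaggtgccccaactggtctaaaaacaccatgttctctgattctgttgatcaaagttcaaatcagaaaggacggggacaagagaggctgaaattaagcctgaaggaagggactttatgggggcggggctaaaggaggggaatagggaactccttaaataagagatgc

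In Prss34, which encodes a basophil protease, AGATAA began 31 bases before the start, and in Cpa3 it began 46 bases before it. In Cd200r3 the words ran into each other, with AGATAA at 39, AGATAG at 33 and GAGGAA at 28 bases, the last of which shares a base with AGATAG, and GAGGAA again at 21. Ms4a2 held 3 matches, at 224, 37 and 11 bases. Fcer1a held AGATAA at 92 and GAGGAA at 216 bases, and Hdc held TGATAG at 221 bases. A match shows only that the letters are there.

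Together the mast cell and basophil genes took between 0.257% and 0.275% of all counts in control and between 0.270% and 0.312% with DB2313. Their summed level was 2579, 2689 and 2785 CPM in the controls (replicates 1 to 3, the order used throughout) against 3151, 3018 and 2643 CPM in the DB2313 libraries. DB2313 replicate 3 lay inside the control range, and the other DB2313 libraries lay above it. The controls averaged 2684 ± 103 CPM and the DB2313 libraries 2937 ± 263 CPM (SD, n = 3 each, as for every mean). The 3 proteases made up between 78.7% and 80.9% of these counts in every library.

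Compared per length as TPM (counts divided by the deposited gene length and scaled to the same sum in each library), the order of the 9 genes was the same in both groups. Prss34 was highest, at 2718 ± 110 TPM in control and 2992 ± 171 TPM with DB2313, the gene at rank 33 of the table. Mcpt8 followed at 1688 ± 50.8 and 1773 ± 125 TPM, and Cpa3 at 582 ± 22.6 and 616 ± 26.8 TPM. The granule proteases were thus the most abundant transcripts of the group. The alpha chain Fcer1a came next at 192 ± 2.86 TPM in control, followed by Gata2 at 86.0 ± 1.82, the beta chain Ms4a2 at 67.5 ± 2.46 and Hdc at 43.8 ± 2.84 TPM. The surface receptors Cd200r3, at 26.8 ± 1.03 TPM, and Il1rl1, at 22.3 ± 2.52 TPM, were lowest. Neighbours in this order did not overlap between libraries within either group.

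**Figure D1:**
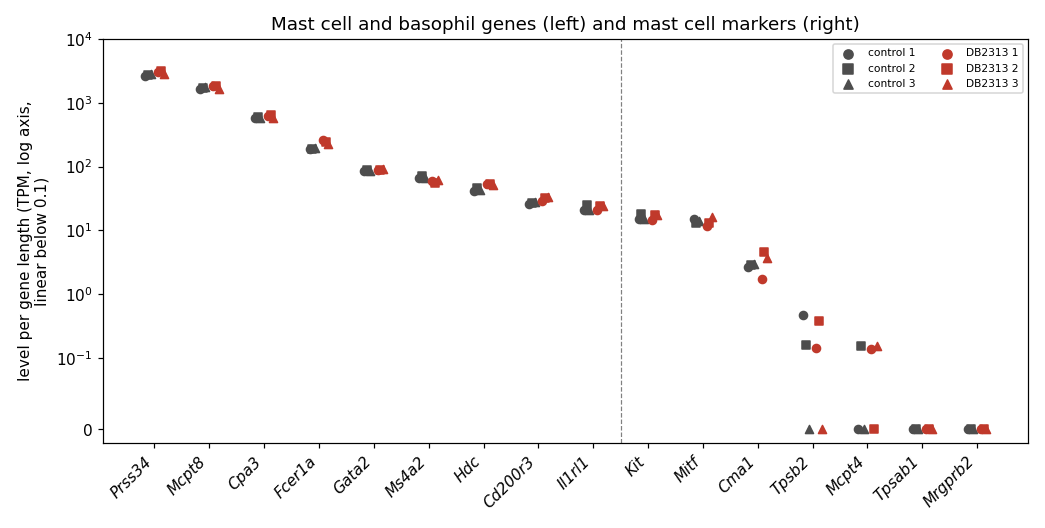
Level per length (TPM, log axis and linear near 0) in each of the 6 libraries, a symbol per library, for the 9 genes on the left of the dashed line and 7 mast cell markers on the right. Prss34 and Mcpt8 lie at 1629 TPM or above in every library, whereas Tpsab1 and Mrgprb2 are at 0 in all.

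Both cell types share most of these genes, so markers that mast cells have and basophils mostly lack were read too. Kit, the stem cell factor receptor of mast cells and progenitors, was at 48.3, 58.3 and 50.1 CPM in control and 51.3, 56.8 and 54.9 CPM with DB2313. The granule genes of connective tissue mast cells were at or near 0. Cma1, a chymase, had between 12 and 37 counts per library, and Tpsb2, a tryptase, had between 0 and 3. Mcpt4, another chymase, had 0 or 1. Tpsab1, also a tryptase, and Mrgprb2, a receptor of these mast cells, had 0 counts in all 6 libraries, which allows a level of up to 0.150 to 0.188 CPM in a library (3 counts, counting error only). Kit, Cma1 and the transcription factor Mitf were tested and none was called (edgeR adjusted p of 0.769, 0.767 and 0.931). The 7 markers summed to between 83.3 and 89.6 CPM in control, and between 80.9 and 92.1 CPM with DB2313. So 4 of 7 such markers had 3 counts or fewer everywhere, beside 9507 counts or more of Mcpt8 in each library.

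The comparison of DB2313 with control asked how these genes respond when PU.1 is targeted. Of the 9 genes, 2 rose with DB2313 and none fell (edgeR quasi-likelihood test, Benjamini-Hochberg adjusted p under 0.05 over all genes tested). Among all genes 4.66% were called higher and 5.94% lower. The genes that rose were Fcer1a and Hdc. At an unadjusted p under 0.05 edgeR gave 3 higher and 0 lower, beside 10.9% and 12.5% of all genes, and DESeq2 and limma-voom each called 2 higher and 0 lower (4.64% of all genes were higher by DESeq2). With an offset for gene length 3 of the 9 were higher, beside 5.95% of all genes, and without DB2313 replicate 3 also 3, beside 7.55% of all genes. The log2 fold change was above 0 for 8 of the 9 genes, with a median of 0.10, against 0.00082 over all genes tested. In bulk libraries a change in the number of cells of a type and a change in RNA per cell cannot be told apart. Nothing in the labels says that the libraries came from separate cultures or animals, so the p-values measure only the spread between these libraries.

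**Figure D2:**
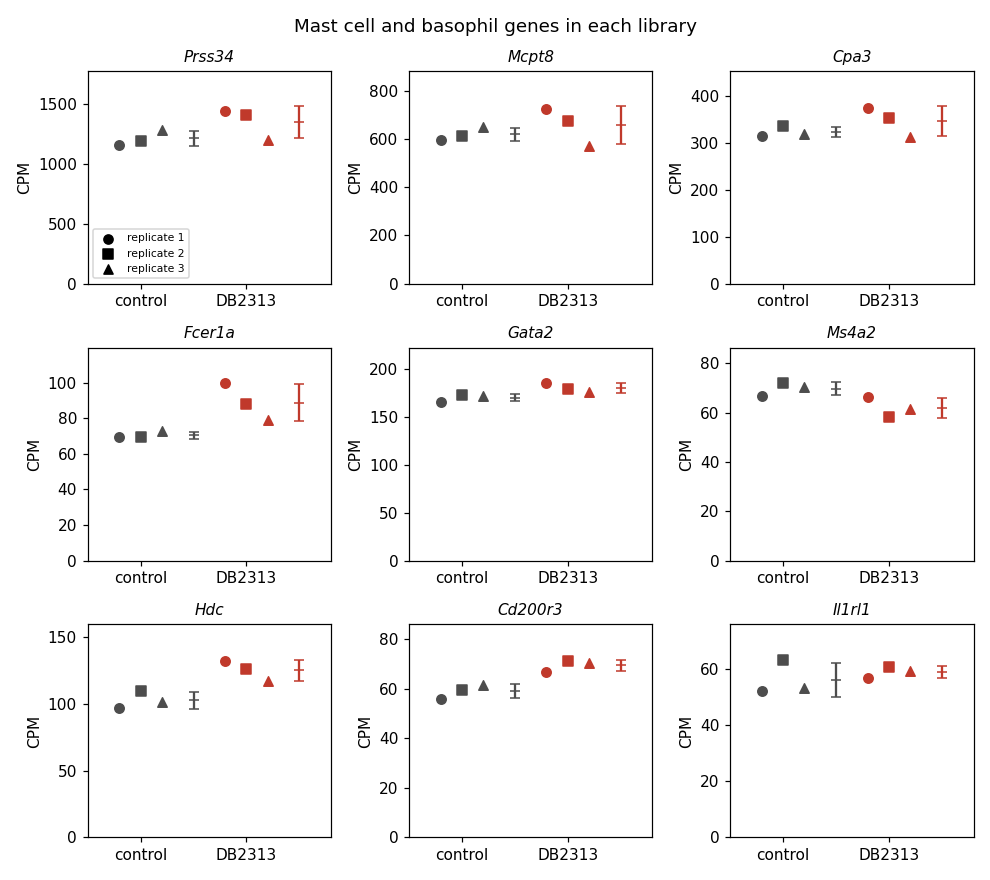
Level (CPM) of each of the 9 genes in each library, with a panel per gene, a symbol per replicate and the group mean and SD beside the points. Hdc, Fcer1a, Cd200r3 and Gata2 are higher in every DB2313 library than in every control library, Ms4a2 is lower, and the other 4 genes overlap.

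The granule proteases were higher in 2 of 3 DB2313 libraries, and the groups overlapped. Prss34 (chr17:25298394-25300161, plus strand, GRCm38 as for all coordinates) was at 1161, 1194 and 1286 CPM in control and at 1444, 1406 and 1197 CPM with DB2313. DB2313 replicates 1 and 2 were above all controls, and replicate 3 was between the controls. This gave a log2 fold change of 0.15 ± 0.08 (SE), which did not pass (edgeR adjusted p = 0.257). Without DB2313 replicate 3 it was 0.23, with an edgeR adjusted p of 0.00975, the 1 call among the 15 alternative settings. Prss34 is 1216 bp long, and with an offset for gene length the log2 fold change was 0.08 (edgeR adjusted p = 0.417).

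Mcpt8 (chr14:56082166-56085273, minus strand) followed the same libraries. It was at 596, 612 and 647 CPM in control and at 725, 674 and 571 CPM with DB2313. DB2313 replicate 1 was the highest of all 6 libraries and replicate 3 the lowest. Its log2 fold change of 0.09 ± 0.08 did not pass (edgeR adjusted p = 0.590). With an offset for gene length it was -0.00085, and Mcpt8, at 998 bp, is among the shortest genes of the group. Cpa3 (chr3:20215620-20242181, minus strand) was at 315, 336 and 320.0 CPM in control and at 374, 354 and 312 CPM with DB2313. Here too replicate 3 was below all controls and the other DB2313 libraries were above them. Cpa3 differed by 0.10 ± 0.08 on the log2 scale (edgeR adjusted p = 0.482), and with an offset for gene length by 0.04 (0.754).

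The 3 proteases kept close proportions from library to library. Mcpt8 had 0.513, 0.513 and 0.504 counts per count of Prss34 in control, and 0.502, 0.479 and 0.477 with DB2313, a coefficient of variation of 3.21% over the 6 libraries. The groups did not overlap, and the exact permutation p was 0.1, the smallest that 3 against 3 libraries can give. Cpa3 had between 0.249 and 0.282 counts per count of Prss34 in control and between 0.252 and 0.261 with DB2313 (exact permutation p = 0.4). The coefficient of variation of this ratio was 4.70%, and that of the level of Prss34 itself was 9.33%. Mcpt8, Prss34 and Cpa3 are 998, 1216 and 1517 bp long. A movement of short genes between libraries can cancel in part in such ratios but not in a level. Whether it did so here was not tested.

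Of the chains of the IgE receptor, the alpha chain rose, and the beta and gamma chains did not pass the test. Fcer1a (chr1:173221284-173227214, minus strand) was at 69.4, 69.3 and 72.7 CPM in control and at 99.9, 87.9 and 79.0 CPM with DB2313. Every DB2313 library was above every control, with replicate 1 highest and replicate 3 nearest to the controls. The mean rose 1.26-fold, from 70.5 ± 1.92 to 88.9 ± 10.5 CPM (SD, n = 3 each; log2 fold change 0.34 ± 0.09, edgeR adjusted p = 0.0244). Fcer1a is 998 bp long, and with an offset for gene length the log2 fold change was 0.25 (edgeR adjusted p = 0.0230). Among the fits with 1 library left out, the call was lost without any 1 of the controls (edgeR adjusted p from 0.0719 to 0.110) and without DB2313 replicate 1 or 2 (0.0512 and 0.0900).

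Ms4a2 (chr19:11615523-11623719, minus strand) was at 66.7, 72.0 and 70.4 CPM in control and at 66.2, 58.0 and 61.4 CPM with DB2313. All DB2313 libraries were below all controls, though replicate 1 was close to the lowest control. The difference of -0.17 ± 0.08 (log2) did not pass the test (edgeR adjusted p = 0.217). Fcer1g encodes the gamma chain that the receptor shares with other Fc receptors of myeloid cells. It was at 380, 388 and 419 CPM in control and at 505, 461 and 389 CPM with DB2313. DB2313 replicate 3 lay within the controls and the other treated libraries above them (log2 fold change 0.19 ± 0.09, edgeR adjusted p = 0.199).

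The balance of the alpha and beta chains was read within each library, where the scaling by library size cancels. The movement of short genes between libraries does not cancel, as Fcer1a is 998 bp and Ms4a2 2813 bp long. Ms4a2 had 0.961, 1.04 and 0.969 counts per count of Fcer1a in control, against 0.663, 0.660 and 0.777 with DB2313. The groups did not overlap, which follows from the levels above, with Fcer1a higher and Ms4a2 lower in every DB2313 library than in every control. The exact two-sided permutation p of 0.1, the smallest possible here, therefore adds nothing to those levels. The gamma chain had between 5.48 and 5.77 counts per count of Fcer1a in control and between 4.92 and 5.24 with DB2313 (exact permutation p = 0.1).

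**Figure D3:**
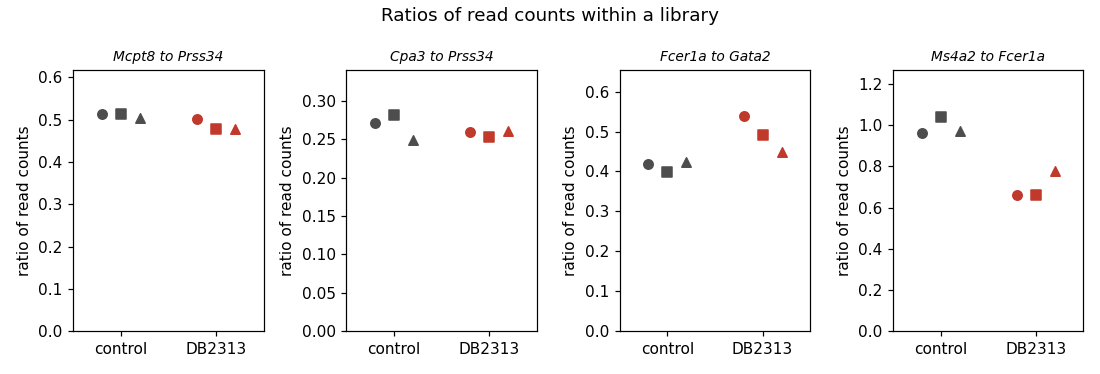
Ratios of read counts for 4 pairs of genes in each of the 6 libraries, a panel per pair and a symbol per replicate, control beside DB2313. The ratio of Ms4a2 to Fcer1a is at most 0.777 with DB2313 and at least 0.961 in control, whereas the ratio of Cpa3 to Prss34 overlaps between the groups.

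Hdc (chr2:126593667-126619299, minus strand), the histamine-forming enzyme, rose. It was at 96.8, 109.7 and 102 CPM in control and at 132, 126 and 117 CPM with DB2313. All DB2313 libraries were above all controls. The mean rose 1.22-fold, from 103 ± 6.49 to 125 ± 7.83 CPM (log2 fold change 0.28 ± 0.08, edgeR adjusted p = 0.0293). Hdc is 6389 bp long, and with an offset for gene length the log2 fold change was 0.31 (edgeR adjusted p = 0.00949). Among the fits with 1 library left out, it was not called without control replicate 1 (0.156), control replicate 3 (0.121) or DB2313 replicate 2 (0.133).

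Gata2 (chr6:88193891-88207032, plus strand), the transcription factor of the group, was at 166, 173 and 172 CPM in control and at 185, 179 and 176 CPM with DB2313. The DB2313 libraries were all above the controls, by little. Gata2 was not called, at 0.08 ± 0.07 on the log2 scale (edgeR adjusted p = 0.522). Taken per count of Gata2, Hdc had between 0.584 and 0.633 counts in control and between 0.665 and 0.714 with DB2313, and Fcer1a had between 0.400 and 0.423, then between 0.449 and 0.539. Both ratios were higher in all DB2313 libraries (exact permutation p = 0.1 each). So was that of Cd200r3, at 0.360 to 0.399 against 0.337 to 0.358 in control (exact permutation p = 0.1). That of Ms4a2 was lower, at 0.324 to 0.357 against 0.402 to 0.415 in control. This follows from the levels, with Ms4a2 lower and Gata2 higher in every DB2313 library than in every control. The exact permutation p of 0.1 for Ms4a2 therefore adds nothing to those levels. For Mcpt8, Cpa3 and Il1rl1 the groups overlapped. Fcer1a is 998 bp and Gata2 5398 bp long, so the movement of short genes between libraries does not cancel in their ratio. Prss34 had between 6.89 and 7.49 counts per count of Gata2 in control and between 6.81 and 7.84 with DB2313, so these groups overlapped (exact permutation p = 0.4).

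The surface receptors Cd200r3 and Il1rl1 were not called. Cd200r3 (chr16:44943678-44981380, plus strand) was at 55.9, 59.5 and 61.5 CPM in control and at 66.8, 70.9 and 70.2 CPM with DB2313. No DB2313 library was as low as a control. The difference was 0.23 ± 0.08 on the log2 scale and missed the threshold (edgeR adjusted p = 0.0744). It passed in 2 of the 15 alternative settings, with an offset for gene length (0.0265) and without DB2313 replicate 1 (0.0428). In the others the adjusted p reached up to 0.263 (edgeR, without DB2313 replicate 2). Transcripts of Cd200r3 share stretches of at least 95% identity and up to 307 bp with 56 other genes, so its counts are uncertain where reads had several matches.

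Il1rl1 (chr1:40429570-40465415, plus strand) was at 52.4, 63.4 and 53.3 CPM in control and at 56.8, 61.0 and 59.3 CPM with DB2313. The DB2313 libraries all lay within the control range. Il1rl1 was not called, at 0.07 ± 0.09 on the log2 scale (edgeR adjusted p = 0.716). The genes next to it on the plus strand, both for chains of the IL-18 receptor, were lower with DB2313. Il18r1 (chr1:40465552-40500854) fell from a mean of 19.7 ± 1.10 to one of 11.5 ± 0.382 CPM (log2 fold change -0.77 ± 0.12, edgeR adjusted p = 0.000642). Il18rap (chr1:40515362-40551705) fell from 66.5 ± 3.30 to 54.0 ± 2.53 CPM (-0.30 ± 0.08, edgeR adjusted p = 0.0270).

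**Figure D4:**
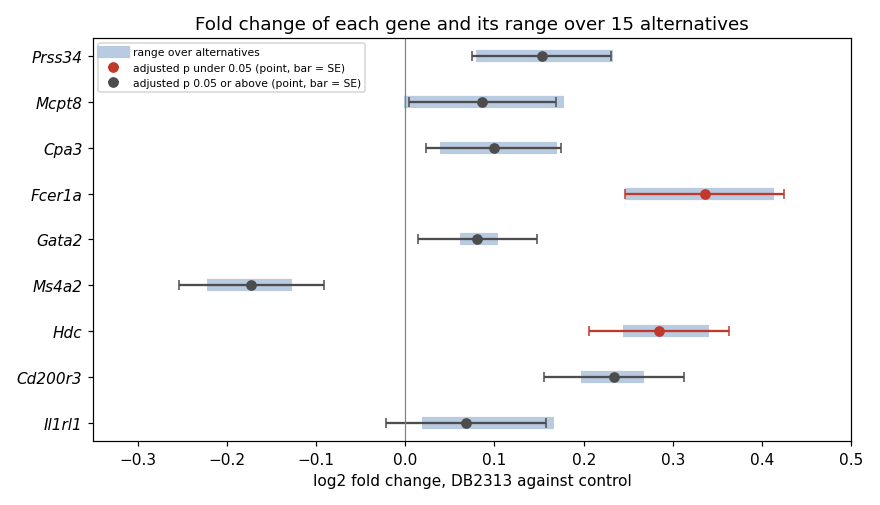
Log2 fold change of DB2313 against control for the 9 genes, with the SE as bars and the range over the 15 alternative settings as a pale band. Fcer1a (0.34) and Hdc (0.28) passed the test and lie farthest to the right, and Ms4a2 (-0.17) is the gene below 0.

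Across the 9 genes, 4 were higher in every DB2313 library than in every control, against 12.9% of all genes tested, and 1 was lower, against 14.5%, so 5 did not overlap, against 27.4% of all genes in either direction. The libraries of the treated group were not alike. Against the control mean, the median of the 9 genes was -0.06, 0.03 and 0.02 (log2) in the controls against 0.21, 0.13 and 0.05 in the DB2313 libraries. DB2313 replicate 1 held the highest deviations, 0.50 for Fcer1a and 0.37 for Hdc. In replicate 3 the proteases were at -0.11 (Mcpt8), -0.05 (Cpa3) and -0.02 (Prss34). The median of short genes, given at the outset, had the same order over the 3 treated libraries. With an offset for gene length the log2 fold change of Fcer1a went from 0.34 to 0.25 and that of Hdc from 0.28 to 0.31.

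**Figure D5:**
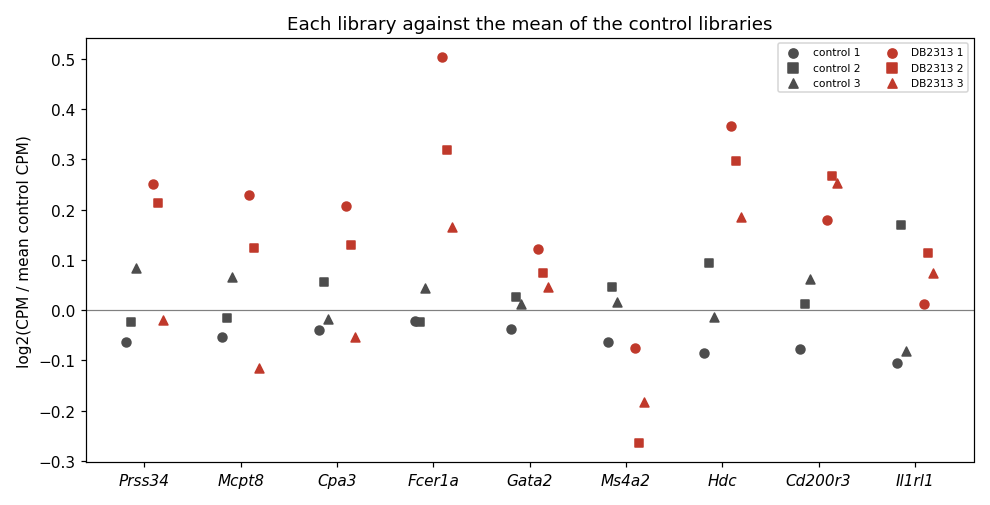
Deviation of each gene from its control mean (log2) in each of the 6 libraries. DB2313 replicate 1 is highest for Fcer1a (0.50) and Hdc (0.37), and in DB2313 replicate 3 the 3 proteases are below their control mean.

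Other genes of these cells were read from 5 related lists with 109 genes in all, of which 96 were tested. With DB2313 8 rose and 8 fell, beside 4.66% and 5.94% of all genes tested, and the median log2 fold change was -0.01. Of 41 further effector genes of basophils and mast cells, 30 were tested, 5 rose and 4 fell. Ctsg, the granule protease cathepsin G, rose from 123 ± 11.2 to 154 ± 9.97 CPM (log2 fold change 0.33 ± 0.08, edgeR adjusted p = 0.0190). Srgn, for serglycin, the proteoglycan that holds proteases in granules, rose from 450.4 ± 12.8 to 543 ± 47.6 CPM (0.27 ± 0.07, adjusted p = 0.0288). The others that rose, named after their values were seen, were Alox5ap, which helps to make leukotrienes, at 0.23 ± 0.07 (edgeR adjusted p = 0.0445), Cyp11a1, a steroid-forming enzyme, at 0.23 ± 0.07 (0.0441), and the chemokine Ccl4 at 0.62 ± 0.18 (0.0367), whose groups overlapped. Alox5ap was not called once an offset for gene length was used (0.103). The libraries are bulk, so which cells the transcripts of these effector genes came from cannot be told. Of 12 neutrophil markers, 4 also rose and none fell, and a link with these genes was not tested.

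The effector genes that fell were for receptors. Beside Il18r1 and Il18rap they were Cd200r1, for an inhibitory receptor, from 87.4 ± 11.1 to 64.8 ± 3.61 CPM (log2 fold change -0.43 ± 0.09, edgeR adjusted p = 0.00802), and Csf2rb2, for the IL-3 receptor chain found in mice, from 912 ± 47.9 to 676 ± 59.4 CPM (-0.43 ± 0.08, adjusted p = 0.00169). Csf2rb2 shares 3134 bp with Csf2rb, the common chain for IL-3, IL-5 and GM-CSF, so the split of reads between them is uncertain. Csf2rb averaged 2219 ± 126 CPM in the controls against 1987 ± 108 CPM in the DB2313 libraries (adjusted p = 0.171). These receptors are also found on dendritic cells and other leukocytes.

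Signalling below the IgE receptor gave 23 genes, all tested, with 1 higher and 1 lower. Fcgr2b, the inhibitory IgG receptor, rose from 135 ± 7.85 to 187 ± 18.6 CPM (log2 fold change 0.48 ± 0.08, edgeR adjusted p = 0.00165), though it shares 512 bp with Fcgr3. Pik3cd, a catalytic subunit of PI 3-kinase, fell by 0.24 on the log2 scale (adjusted p = 0.0288). Syk, the kinase that the gamma chain recruits, averaged 677 ± 23.6 CPM in the controls against 659.6 ± 46.5 CPM in the DB2313 libraries and was not called. Pik3r1, a regulatory subunit of PI 3-kinase, was not called either (adjusted p = 0.0761).

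Beside Hdc, histamine handling gave 9 genes, of which 8 were tested. Hnmt, which breaks histamine down inside cells, was the gene that was called, with 108, 81 and 72 counts in control and 37, 47 and 25 with DB2313. Every DB2313 library was below every control. It fell by 1.40 on the log2 scale (SE 0.27, edgeR adjusted p = 0.00315), and the call held in all 15 alternative settings. Slc18a2, the transporter that loads histamine into granules, was at 20.3, 19.7 and 25.4 CPM in control and 26.7, 26.1 and 23.6 CPM with DB2313, so the groups overlapped (log2 fold change 0.23 ± 0.12, adjusted p = 0.267). The histamine receptor Hrh2 and the transporter Slc22a3 averaged 15.8 ± 0.377 and 9.68 ± 1.03 CPM in the controls and were not called.

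In the IL-33 pathway below Il1rl1, 12 genes were listed and 11 tested. Irak2, a kinase of this pathway, fell by 0.38 on the log2 scale (SE 0.09, edgeR adjusted p = 0.0168), but it shares stretches of sequence with 38 other genes and is uncertain. Tab2, Irak1 and Traf6, which relay the signal, had the highest levels, from 96.2 to 151 CPM in the controls, and were not called. The co-receptor Il1rap, named after its values were seen, averaged 8.18 ± 0.247 CPM in the controls against 9.33 ± 1.55 CPM in the DB2313 libraries and was not called.

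Of 24 transcription factors linked to GATA2, all tested, 2 rose and 1 fell. Gfi1, a repressor that acts in granulocytes and progenitors, rose from 9.64 ± 0.320 to 15.3 ± 1.93 CPM (log2 fold change 0.66 ± 0.14, edgeR adjusted p = 0.00628). Tal1, a partner of GATA factors in blood cells, rose from 17.2, 15.7 and 19.3 CPM in control to 21.5, 23.7 and 22.5 CPM (0.37 ± 0.11, adjusted p = 0.0489), but was not called by DESeq2 (0.0744) or limma-voom (0.0516). Nfil3 fell from 144 ± 7.44 to 118 ± 3.82 CPM (-0.28 ± 0.07, adjusted p = 0.0207). The highest levels were those of Bhlhe40, Cebpa and Ldb1, at 523 ± 27.6, 207 ± 1.89 and 161 ± 4.89 CPM in the controls, and none of them was called. Gata1, a GATA factor of erythroid cells, eosinophils and mast cells, named after its values were seen, was at 11.7, 11.0 and 12.5 CPM in control and at 18.8, 11.8 and 11.1 CPM with DB2313. DB2313 replicate 1 alone was high, and Gata1 was not called (adjusted p = 0.480).

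The 16 calls in the related lists differed in how they held over the 15 alternative settings. Those of Il18r1, Csf2rb2, Fcgr2b, Hnmt and Gfi1 were kept in all 15, that of Cd200r1 in 14, Irak2 in 13, Ctsg in 12, Nfil3 in 11 and Srgn in 10. Il18rap, Pik3cd and Ccl4 were called in 9, Cyp11a1 and Tal1 in 8, and Alox5ap in 7, and each of these 6 was lost in the fits without control replicate 1, without control replicate 2 and without DB2313 replicate 2.

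Markers of other cells that such cultures can hold were read in the same libraries. Of 12 neutrophil markers, all tested and all above 10 CPM, 4 rose (edgeR, adjusted p under 0.05), beside 4.66% of all genes tested. The 12 summed to between 4871 and 5363 CPM in control and between 5271 and 6593 CPM with DB2313. The highest were Ngp, S100a9 and S100a8, at 1198 ± 78.0, 1158 ± 78.5 and 1055 ± 60.4 CPM in the controls, none of them called. The 4 that rose were Mmp8, Elane, Ly6g and Retnlg, named after their values were seen. Their part in the result for Fcer1a and Hdc was not tested. Of 9 eosinophil markers, led by Prg2, Ear2 and Epx, 1 fell, Siglecf (-0.80 ± 0.22, edgeR adjusted p = 0.0312), named after its values were seen, and their sums overlapped, with 258 to 349 CPM in control and 227 to 325 CPM with DB2313. Megakaryocyte and erythroid markers, led by Itga2b, Pf4 and Ppbp with 7 of 11 tested, summed to between 185 and 212 CPM in control and between 199.9 and 243 CPM with DB2313, with Gp1bb at 0 counts in all libraries. Of 8 stem and progenitor cell markers, led by Sox4, Kit and Flt3, 7 were tested and 1 fell, Sox4 (-0.87 ± 0.08, edgeR adjusted p = 1.12e-05). Some type 2 innate lymphoid cells and T cells also carry Il1rl1. Of their 11 markers, led by Il7r, Il2ra and Trac, 9 were tested and 1 fell, Il2ra, and Areg and Il5 had 1 count or fewer everywhere.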

How the data were processed

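RNA-seq was done on 3 control and 3 DB2313-treated mouse dendritic cell samples. A table with raw counts of reads for each gene, and the gene lengths, was deposited by the authors. The submitters' processing notes name CASAVA 1.8, HISAT2 2.0.5 and featureCounts 1.5.0-p3. The genome build and strandedness were not given in the sources used here. Coordinates are given as GRCm38, since 98.3% of the 54409 genes found in GENCODE M21 start and end at the same bases. Groups followed the treatment in the labels. The control columns were matched to the samples by a short form of the cell name and the replicate number. The treated columns carry the name of Spi1, the target of DB2313, and not that of the compound, and were matched on that basis.

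Counts were tested with edgeR 4.0.16 under R 4.3.3 (quasi-likelihood test, TMM scaling, filterByExpr, group as the only term), with Benjamini-Hochberg adjustment over the 14174 genes tested. SE is the absolute log2 fold change divided by the square root of F. Ratios were compared by exact two-sided permutation tests. Alternatives were DESeq2 1.42.0, limma-voom 3.58.1, other scalings and filters, a gene length offset (lowess, span 0.3), the replicate number as a block, and each library left out in turn. The scripts were tested on simulated data. Near-identical transcripts were searched with blastn 2.17.0 (at least 95% identity over 100 bp). The members and the lists were chosen with earlier results of these data known. All 9 members were named. From each related list the text named the called genes, at most 5, and up to 3 of the highest level. From each marker list it named up to 3 of the highest level and those at 3 counts or fewer. Other genes are marked as named after their values were seen. The depth was 16146743 to 19764677 counts per library. The reads carry no molecular identifiers, so counting limits cover counting error only.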

Additional observations from a re-analysis of the deposited data

How the results depend on the processing

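Scaling, filter, DESeq2 and limma-voom left 2 of the 9 genes higher and 0 lower (edgeR: 0 lower at an unadjusted p under 0.05, limma-voom: 1). With each library left out in turn, the number called higher ranged from 0 (without control replicate 1 or 3, or DB2313 replicate 2) to 3 (without DB2313 replicate 3), the related genes called higher from 2 to 10 and those called lower from 4 to 14, and the genes called overall from 739 to 2408, against 1503. With 1 library left out, the groups hold 2 and 3 libraries and fewer residual degrees of freedom. No member was called lower in any of them. Summed levels moved by less than 1 SD.

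Same-numbered libraries were not paired by these data (correlations of same-numbered deviations of 0.0035, -0.024 and -0.12). With the replicate block Hdc was lost (adjusted p = 0.0691), so 1 member was called higher, with 3 related genes higher and 5 lower, with 1131 genes called overall. With the block and the gene length offset together Fcer1a was lost (0.0554), leaving 1 member higher, and 5 related genes were higher.

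Mcpt8 changed sign with the gene length offset (-0.00085) and with the block and the offset (-0.0019), neither called. Gata1 was at -0.036 without DB2313 replicate 1, in a range up to 0.38 over the libraries left out. Depth does not limit the members, with 849 counts or more per library, but does limit mast cell markers at a few counts.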

Other observations

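The genes whose level over the 6 libraries was most like that of the 9 genes were sought outside the lists. By Pearson's r with the mean standardised log2 CPM of the 9 genes, and among 10606 protein-coding genes, they were Thap11 (r = 0.990), Adgrg1 (0.990), Hpcal1 (0.987), Sec11a (0.986) and Eif3g (0.985). None was called by edgeR, and 257 genes had an r above 0.9. The 6 points share scaling and depth, so this is a description with no test. Thap11 was at 50.1, 53.4 and 51.9 CPM in control and 58.8, 55.8 and 52.4 CPM with DB2313, the order of treated libraries that the median of the members also has.

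Among the members, Gata2 (r = 0.966) and Hdc (0.921) lay nearest to the mean of the other 8 over the 6 libraries, and Il1rl1 (0.311) and Ms4a2 (-0.458) lay farthest from it.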
